A study of Mus musculus with 18 samples.

Results

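Hox genes encode the homeodomain transcription factors that give cells their position along the body axis, and 39 protein-coding genes of the 4 mouse Hox clusters were followed here in C2C12 myoblasts, out of 50600 gene identifiers in the deposited counts. They were taken by symbol from the GENCODE M21 annotation as every protein-coding gene named Hoxa, Hoxb, Hoxc or Hoxd with a number. HoxA holds 11 genes on chromosome 6, HoxB 10 on chromosome 11, HoxC 9 on chromosome 15 and HoxD 9 on chromosome 2. C2C12 is a line of mouse myoblasts from leg muscle that leave the cell cycle and form multinucleated myotubes once serum is reduced. All 18 libraries come from stable C2C12 lines: a control line transfected with a control plasmid, a line depleted of the atypical MAP kinase ERK3 (plasmid px459-Mapk6sg) and a line depleted of its partner kinase MK5 (plasmid px459-Mk5sg). The px459 vector carries Cas9 and a guide RNA, and the labels do not say whether a line is 1 clone. Libraries were made from each line while it was growing (GM, growth medium) and on day 2 of differentiation (DM2, differentiation medium), 3 for each of the 6 groups.

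Within a cluster the Hox genes lie in the order in which they are used from head to tail, and genes at the same place in different clusters form a paralog group, numbered from the anterior end. Low-numbered groups are used anteriorly, and the high-numbered groups mark the trunk's posterior end and the limbs, where HoxA and HoxD genes pattern the limb segments and HoxC genes mark the hindlimb. Adult cells keep much of the pattern of the place they came from, held by Polycomb repression of silent genes and trithorax-dependent maintenance of active ones. Hox proteins bind DNA together with TALE-class homeodomain cofactors of the Pbx, Meis and Pknox families.

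Between 17.5 and 23.4 M reads were assigned to genes per library, and nothing in the labels says whether the 3 libraries of a group are separate cultures or clones, so each p-value measures the spread between these samples only. Of the markers of muscle cells chosen for the check, all 8 were read in these libraries, with a summed level of 1512 to 1893 CPM (counts scaled to a common library size) in control GM and 3803 to 3992 at control DM2. Endothelial markers summed to at most 0.526 CPM and neural markers to at most 0.890 in any library. Mapk6, the gene of ERK3, had 96.8 to 136 CPM at ERK3-depleted DM2 against 204 to 219 at control DM2 (log2 -0.86 ± 0.12, adjusted p = 2.18e-05), while in GM its ranges of 105 to 133 and 119 to 150 overlapped. Mapkapk5, the gene of MK5, was called lower in the MK5-depleted line at DM2 (log2 -0.68 ± 0.26, adjusted p = 0.0443) and not in GM (log2 -0.55 ± 0.27, adjusted p = 0.232). The share of reads outside genes was 2.40 to 3.22% in all GM and control DM2 libraries and was highest in ERK3-depleted DM2 libraries 2 (7.73%) and 1 (5.55%) and MK5-depleted DM2 libraries 2 (4.11%) and 1 (3.96%).

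The C2C12 Hox program was a HoxA and HoxC program with its weight at the posterior end. Per gene length, in TPM (a length-corrected level with the same sum in every library, mean ± SD, n = 3), the highest member in control GM was Hoxc10 at 63.5 ± 2.47, a gene of the lumbar trunk and hindlimb. Hoxa10, its HoxA paralog, followed at 51.8 ± 3.86. Hoxc11 stood at 39.1 ± 4.47 and its paralog Hoxa11, which patterns the middle limb segment, at 27.1 ± 1.71. Hoxa9 stood at 21.8 ± 3.50 TPM, and the libraries of Hoxa11 and Hoxa9 overlapped. No library of the first 3 genes overlapped those of the gene below it.

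Below them came Hoxc9 at 18.1 ± 0.280 TPM, Hoxa7 at 14.2 ± 3.36, Hoxc6 at 13.6 ± 3.34 and Hoxc13 at 11.8 ± 0.431. Hoxa7, Hoxc6 and Hoxc13 overlapped with the next gene in that order or the one before it. Hoxc4 (5.05 ± 0.596), Hoxa5 (3.87 ± 0.827) and Hoxa13 (3.33 ± 1.02) formed a lower tier, with Hoxa5 overlapping both others. Hoxa3 had 2.19 ± 0.115 TPM, Hoxc5 1.58 ± 0.896 and Hoxc12 1.23 ± 0.560. Hoxa6, Hoxc8, Hoxa2 and Hoxa4 averaged under 1 TPM, at 0.817 ± 0.351, 0.800 ± 0.193, 0.460 ± 0.165 and 0.307 ± 0.0153. From Hoxa3 down, each gene's libraries overlapped those of the next in the order. Level did not follow position alone: Hoxc8 and Hoxc12 lay far below their neighbours on either side, and Hoxa6 below Hoxa5 and Hoxa7.

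**Figure D1:**
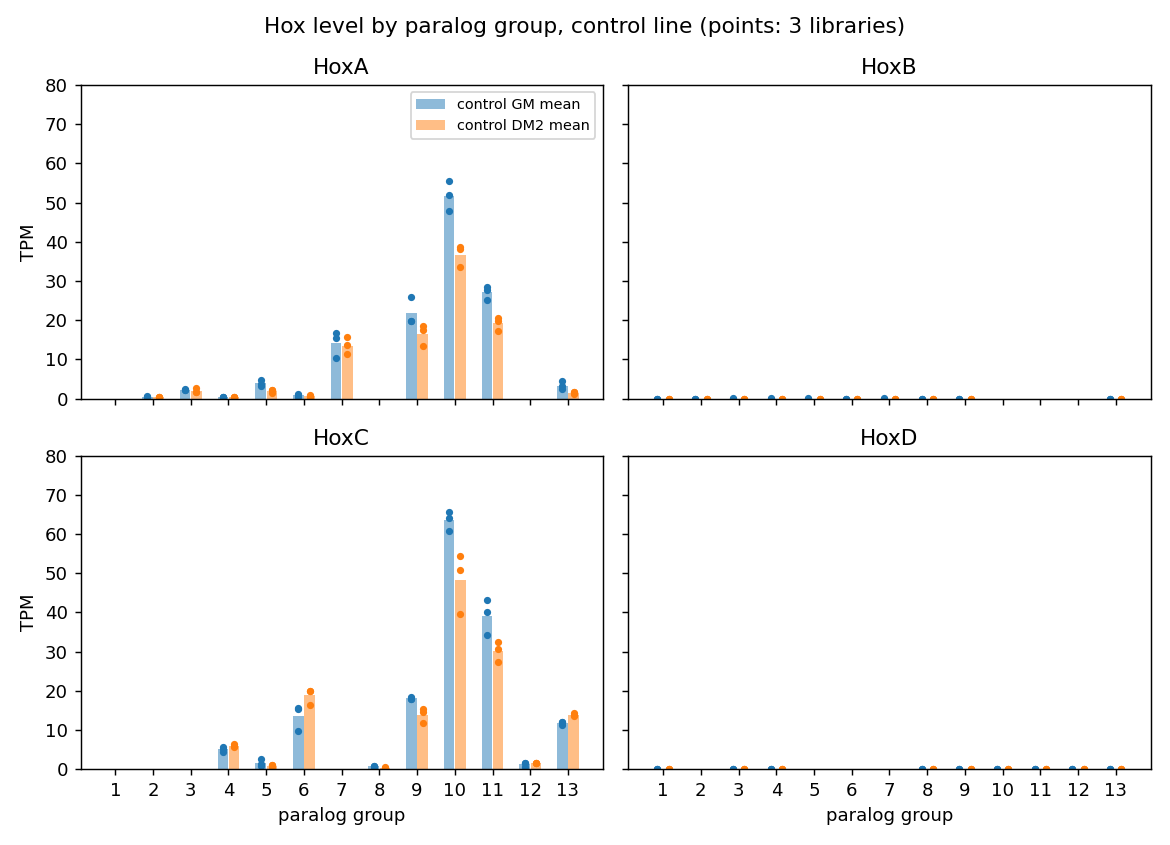
Level of 38 of the 39 Hox genes in the control line by cluster (panel) and paralog group (x axis), in TPM on a linear axis. Bars are means of 3 libraries and points are libraries, in GM (blue) and at DM2 (orange). Groups 9 to 11 of HoxA and HoxC stand highest, led by Hoxc10, and HoxB and HoxD lie at or near 0.

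Paralog groups 9 to 13 held 84.5 ± 2.35% of the summed Hox TPM in control GM and 79.6 ± 1.07% at control DM2 (mean ± SD, n = 3). In the ERK3-depleted line the share was 83.1 ± 0.661% in GM and 71.8 ± 5.31% at DM2. In the MK5-depleted line it was 82.7 ± 0.942% and 78.7 ± 2.56%. The 3 ERK3-depleted DM2 libraries, at 67.4 to 77.7%, all lay below the control DM2 libraries, at 78.4 to 80.5%. HoxC made up 54.9 ± 1.41% of the sum in control GM and 58.6 ± 0.948% at control DM2, against 67.9% (66.1 to 70.8%) and 66.9% (65.4 to 68.2%) in the ERK3-depleted and MK5-depleted lines at DM2. In GM the depleted lines, at 56.6 to 60.3% (ERK3) and 57.2 to 59.8% (MK5), already lay above control at 53.8 to 56.5%. The HoxC sum itself was not higher at depleted DM2, at a mean of 129 (ERK3) and 126 TPM (MK5) against 134 in control. Both depleted groups lay within the control range. The HoxA sum was lower, at 60.6 and 62.3 against 94.4 TPM, with no overlap with control. These shares and sums are of TPM, in which the transcript length of Hoxa9 differed between the DM2 groups and the median gene was lower at depleted DM2, as given below.

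**Figure D2:**
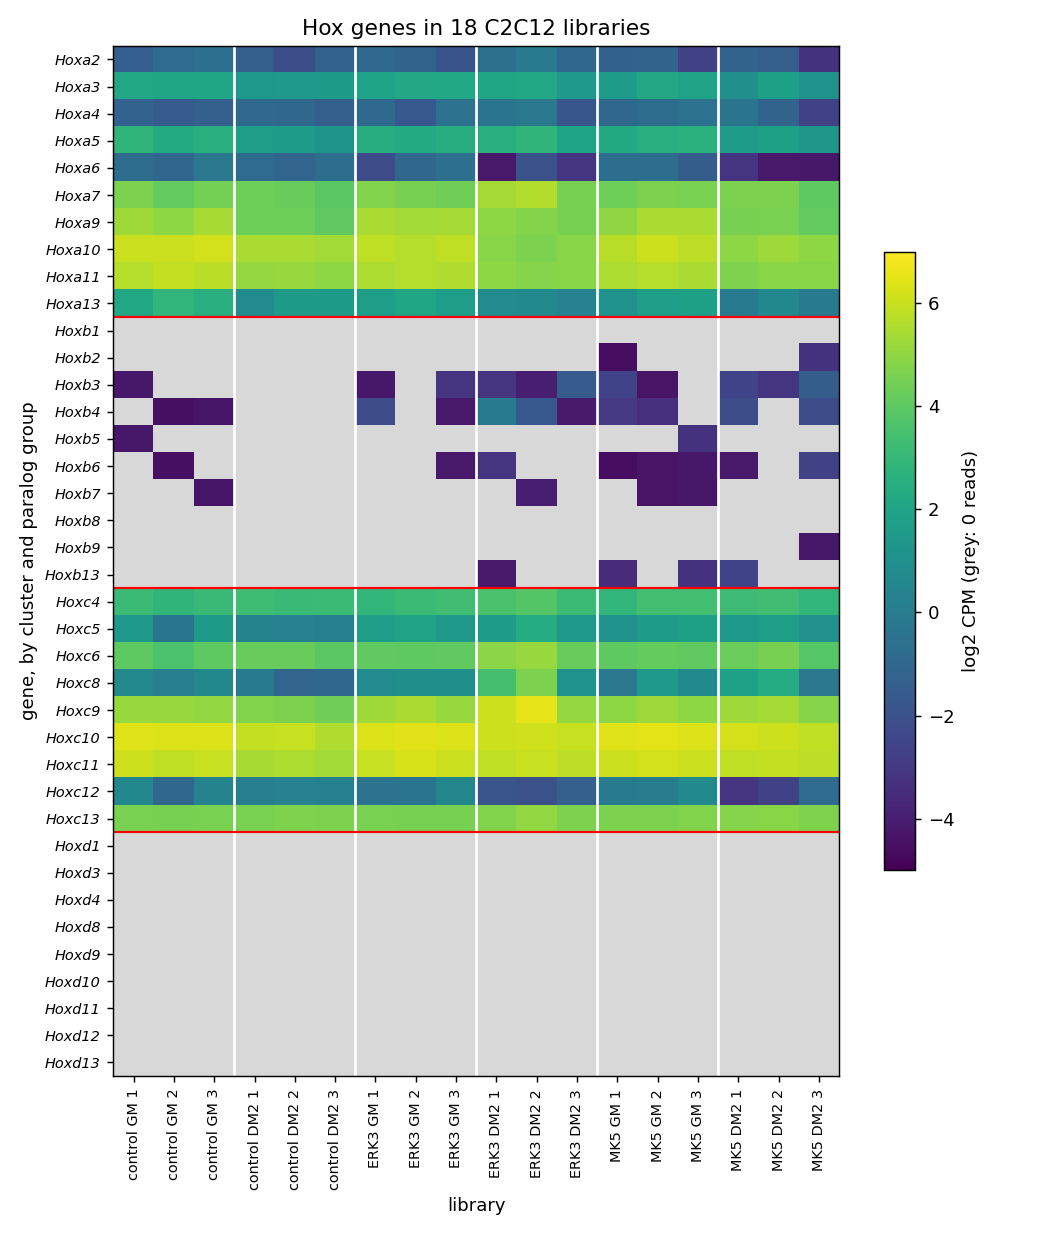
Level of 38 of the 39 Hox genes (y axis, by cluster and paralog group, red lines between clusters) in the 18 libraries (x axis, white lines between groups), as log2 CPM. Grey marks 0 reads. HoxA and HoxC are read in every library, HoxB in scattered ones and HoxD in none.

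The HoxD cluster was silent in every library. All 9 genes, Hoxd1, Hoxd3, Hoxd4, Hoxd8, Hoxd9, Hoxd10, Hoxd11, Hoxd12 and Hoxd13, had 0 reads on either strand, 0 unstranded counts and an RSEM estimate of 0 in all 18 libraries. A count of 0 allows a level of up to 0.128 to 0.172 CPM in a single library (3 counts of its total, counting error only) and up to 0.00854 CPM over all 351 M gene counts together. Evx2, the homeobox gene beside Hoxd13, was at 0 as well, and so were the 9 noncoding genes annotated in the cluster. The genes on either side were expressed: Lnpk, an endoplasmic reticulum protein, held 18.8 to 48.1 CPM and Mtx2, of the mitochondrial outer membrane, 44.1 to 74.7. Of 21764 protein-coding identifiers, 5247 (24.1%) had no read in any library, against 11 of the 39 Hox genes.

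HoxB was read only in traces, 104 sense reads (reverse column) in all 18 libraries together and 0 to 23 in one, and none of its 10 genes passed the filter for testing. Hoxb1 and Hoxb8 had no read at all. Hoxb4 had 44 reads and Hoxb3 30, followed by Hoxb6 with 11, Hoxb13 with 8, Hoxb7 with 4, Hoxb2 and Hoxb5 with 3 each and Hoxb9 with 1. The 3 control DM2 libraries held no sense HoxB read, which allows 0.0478 CPM for any gene over that group, and 1 antisense read, over Hoxb7. At ERK3-depleted DM2 Hoxb4 had 18, 5 and 1 reads, a level of 0.432 CPM (exact Poisson 95% interval 0.277 to 0.644, counting error only). That level was 9.06 times the 0.0478 CPM allowed at control DM2. Library 1 gave 18 of these 24 reads. Hoxb3 had 2, 1 and 6 reads at ERK3-depleted DM2 and 3, 2 and 7 at MK5-depleted DM2, 3.40 and 4.42 times that limit. Its Poisson intervals were 0.0742 to 0.308 and 0.109 to 0.369 CPM. These ratios leave out the counting error of the depleted groups, so they are not lower bounds of a fold, and they compare group sums only. Tested by edgeR without the low count filter, Hoxb4 and Hoxb3 were called higher than control at DM2 with ERK3 depleted (adjusted p = 1.57e-05 and 0.00846) and with MK5 depleted (0.0153 and 0.00377). That fit gave far smaller p-values for other members as well, 1.77e-60 for Hoxc8 at ERK3-depleted DM2 against 0.000221 with the filter.

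Promoters of expressed and silent Hox genes are printed side by side, for the HoxA and HoxD members of groups 9 and 13. The windows run from 250 bases before to 50 bases after the RefSeq transcript start in GRCm38.p6, 5′ to 3′ on the gene's strand. Each CpG is in capitals.
Hoxa9, chr6:52227321-52227620, minus strand, 4 CpG: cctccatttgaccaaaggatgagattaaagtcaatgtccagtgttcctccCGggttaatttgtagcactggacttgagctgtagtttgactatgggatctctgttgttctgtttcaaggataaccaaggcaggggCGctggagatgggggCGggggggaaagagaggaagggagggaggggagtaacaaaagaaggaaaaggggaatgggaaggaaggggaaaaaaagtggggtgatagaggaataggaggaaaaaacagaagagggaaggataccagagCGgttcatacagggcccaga
Hoxd9, chr2:74697513-74697812, plus strand, 20 CpG: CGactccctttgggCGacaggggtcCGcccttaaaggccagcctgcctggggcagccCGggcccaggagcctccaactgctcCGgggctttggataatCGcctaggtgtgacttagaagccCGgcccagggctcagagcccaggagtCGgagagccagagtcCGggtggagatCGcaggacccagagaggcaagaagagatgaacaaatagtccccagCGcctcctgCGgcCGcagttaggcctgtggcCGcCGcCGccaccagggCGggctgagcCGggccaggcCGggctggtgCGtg
Hoxa13, chr6:52260831-52261130, minus strand, 45 CpG: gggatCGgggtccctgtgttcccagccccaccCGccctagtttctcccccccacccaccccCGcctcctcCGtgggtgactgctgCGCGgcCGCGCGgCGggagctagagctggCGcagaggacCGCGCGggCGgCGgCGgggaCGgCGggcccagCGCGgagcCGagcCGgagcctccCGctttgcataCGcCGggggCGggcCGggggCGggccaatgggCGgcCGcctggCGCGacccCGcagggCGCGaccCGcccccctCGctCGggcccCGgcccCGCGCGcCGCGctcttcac
Hoxd13, chr2:74667975-74668274, plus strand, 37 CpG: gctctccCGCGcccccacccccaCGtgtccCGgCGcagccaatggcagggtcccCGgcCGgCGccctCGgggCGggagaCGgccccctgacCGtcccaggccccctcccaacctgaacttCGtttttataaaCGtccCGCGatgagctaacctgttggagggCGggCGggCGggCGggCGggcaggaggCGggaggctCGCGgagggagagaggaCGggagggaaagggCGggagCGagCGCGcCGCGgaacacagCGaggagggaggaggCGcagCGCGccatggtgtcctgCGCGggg
Both silent HoxD promoters held more CpG than the median promoter, with 20 sites in Hoxd9 and 37 in Hoxd13, while Hoxa9, one of the highest members, has 4 and Hoxa13 45 in this window. The Hoxa9 window lies inside the M21 span of the gene, which begins at base 52231089 on its strand. Whether the start in that window is used in these cells was not tested. Over the 10 HoxD promoters in the RefSeq table the median was 20 CpG (range 4 to 37), over the 10 of HoxA 17.5 (4 to 45) and over all 32851 promoters 7. The table held 24 promoters for 22 of the 39 genes, 3 of them in HoxB and 1 in HoxC. The E-box CAGCTG that Myod1 and Myog bind was in 4 of the 24 (16.7%, against 16.3% of all promoters, both strands), namely those of Hoxa3, Hoxa5, Hoxa6 and Hoxa11. The forkhead motif GTAAACA was in none, against 3.65% of all, and the Pbx and Hox motif TGATTGAT in 2 (Hoxa2 and Hoxd11), against 0.746%.

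Differentiation of the control line was accompanied by a fall of Hoxa3, Hoxa5, Hoxa9, Hoxa10, Hoxa11, Hoxa13, Hoxc10 and Hoxc11 by the counts. Of the 20 members that could be tested, all 11 of HoxA and 9 of HoxC, 8 were called lower and 0 higher at DM2 by edgeR's quasi-likelihood test (adjusted p under 0.05). Of all 13939 tested genes 45.6% were called, 22.5% higher and 23.1% lower. The median log2 change was -0.56 over the 20 Hox genes and -0.02 over all tested genes. In bulk RNA, fewer cells with a transcript and less of it per cell cannot be told apart. The summed level of the 8 fibroblast markers was 56.3 to 67.9 CPM in control GM and 186 to 219 at control DM2, and it was also higher at DM2 in both depleted lines, as was that of the 8 muscle markers. Their part in the Hox changes was not tested. In HoxA 6 of 11 fell and in HoxC 2 of 9. In the ERK3-depleted line 7 members fell and 5 rose (55.1% of all genes called, 28.9% higher and 26.2% lower), and in the MK5-depleted line 9 fell and 0 rose (49.3%, 24.6% higher and 24.8% lower). Hoxa9, Hoxa10, Hoxa11, Hoxa13 and Hoxc10 fell in all 3 lines by the counts. On the deposited TPM, tested by limma on the log2(TPM + 0.1) scale, the control fall of Hoxa9 was not called (log2 -0.41, adjusted p = 0.0977) and Hoxc6 was called higher in control (log2 0.50, adjusted p = 0.0248), against log2 0.24 ± 0.20, adjusted p = 0.332 by the counts.

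Hoxa10 was the most abundant HoxA gene in the control line. Hoxa10 stood at 65.9, 65.1 and 72.2 CPM in control GM and 43.9, 44.5 and 40.3 at control DM2. With ERK3 depleted the values were 58.5, 50.3 and 56.9 in GM and 28.8, 25.1 and 29.1 at DM2. With MK5 depleted they were 52.0, 68.6 and 55.7 and 30.8, 38.1 and 30.8. In each line the 3 DM2 libraries lay below the 3 GM libraries. The change was log2 -0.66 ± 0.11, adjusted p = 7.25e-05 in control, log2 -1.0 ± 0.11, adjusted p = 1.1e-06 in the ERK3-depleted line and log2 -0.82 ± 0.11, adjusted p = 9.35e-06 in the MK5-depleted line. Hoxa11, a regulator of forearm and lower leg patterning that limb muscle precursors also express, behaved the same way. Hoxa11 was measured at 50.4, 58.7 and 54.5 CPM in the control libraries in GM and 34.1, 35.8 and 31.2 at DM2. Its level was 45.3, 51.3 and 46.9 in ERK3-depleted GM and 30.8, 28.2 and 29.2 in ERK3-depleted DM2. For the MK5-depleted line the values were 45.5, 50.1 and 44.7 in GM and 25.8, 29.6 and 29.6 at DM2. The DM2 libraries of each line were all below its GM libraries. The 3 changes were close, at log2 -0.69 ± 0.086, -0.70 ± 0.088 and -0.72 ± 0.088, with adjusted p of 3.55e-06, 4.21e-06 and 3.32e-06.

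Hoxa9, known for its role in blood progenitors and in aged muscle stem cells, fell in each line. Hoxa9 held 38.8, 31.4 and 43.8 CPM in control GM, against 20.6, 20.1 and 17 at control DM2. ERK3-depleted libraries gave 43.9, 40.2 and 41.1 CPM of Hoxa9 in GM and 30.9, 27.7 and 23.6 at DM2. In MK5-depleted libraries it had 32.5, 45.2 and 43.8 CPM in GM and 23.3, 23.9 and 17.4 at DM2. No DM2 library reached the GM range of its line. The changes were log2 -0.98 ± 0.15, adjusted p = 3.78e-05, then log2 -0.61 ± 0.15, adjusted p = 0.00227 with ERK3 depleted and log2 -0.91 ± 0.15, adjusted p = 9.08e-05 with MK5 depleted. Hoxa13, which patterns digits, was low and had the largest fold among the genes that fell in all 3 lines. Hoxa13 stood at 4.48, 7.55 and 5.81 CPM in control GM and 1.74, 2.88 and 2.87 at control DM2. The same gene had 3.16, 4.20 and 3.29 CPM in the ERK3-depleted line in GM and 1.72, 1.61 and 1.26 at DM2. MK5-depleted libraries showed 2.22, 3.30 and 3.59 CPM in GM and 0.994, 1.53 and 0.947 at DM2. Its DM2 libraries again lay below the GM libraries of each line. It fell by 2.39-fold in control (log2 -1.25 ± 0.24, adjusted p = 0.000389), 2.32-fold in the ERK3-depleted line (log2 -1.21 ± 0.28, adjusted p = 0.00122) and 2.60-fold in the MK5-depleted line (log2 -1.38 ± 0.29, adjusted p = 0.000702).

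Hoxc10 moved less. Hoxc10 was measured at 86.2, 83.8 and 82.7 CPM in the control libraries in GM and 59.3, 62.7 and 47.2 at DM2. With ERK3 depleted the values were 83.1, 87.1 and 81.8 in GM and 66.9, 70.3 and 63.0 at DM2. With MK5 depleted they were 86.2, 89.8 and 83.4 and 74.8, 68.6 and 58.3. Its DM2 libraries were below the GM libraries in each line, by log2 -0.58 ± 0.10, adjusted p = 0.000119 in control, log2 -0.33 ± 0.10, adjusted p = 0.00846 with ERK3 depleted and log2 -0.36 ± 0.10, adjusted p = 0.00554 with MK5 depleted. Hoxc11, its neighbour, is likewise a gene of the posterior trunk. Hoxc11 held 68.7, 57.9 and 63.9 CPM in control GM, against 43.7, 46.4 and 40.2 at control DM2. Its level was 62.8, 78.0 and 65.2 in ERK3-depleted GM and 58.6, 64.5 and 56.1 in ERK3-depleted DM2. For the MK5-depleted line the values were 65.2, 71.4 and 66.0 in GM and 57.8, 59.7 and 56.0 at DM2. The fall was called in control (log2 -0.55 ± 0.092, adjusted p = 0.000103) and not in the depleted lines (log2 -0.20 ± 0.092, adjusted p = 0.0706 and log2 -0.22 ± 0.092, adjusted p = 0.0515). With the replicate number as a block Hoxc11 was called in the ERK3-depleted (log2 -0.20, adjusted p = 0.0471) and the MK5-depleted line (log2 -0.22, adjusted p = 0.0315). Over 15 alternatives its fall was called in 6 for the ERK3-depleted and in 10 for the MK5-depleted line. For MK5 these included DESeq2 (log2 -0.22, adjusted p = 0.0431). The difference of response from control stood at log2 0.35 ± 0.13, adjusted p = 0.0545 for ERK3 and log2 0.32 ± 0.13, adjusted p = 0.0863 for MK5. It was called under the block for both (adjusted p = 0.0280 and 0.0467) and by DESeq2 for ERK3 (adjusted p = 0.0444), so whether the response of Hoxc11 differed depends on the fit.

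Among the anterior members Hoxa5, a gene of the neck and thorax, and Hoxa3, of the pharyngeal region, fell in control and in the MK5-depleted line. Hoxa5 stood at 7.31, 5.09 and 5.91 CPM in control GM and 3.29, 3.02 and 2.30 at control DM2. ERK3-depleted libraries gave 5.58, 5.07 and 5.65 CPM of Hoxa5 in GM and 5.84, 7.32 and 3.94 at DM2. In MK5-depleted libraries it had 4.86, 6.02 and 6.43 CPM in GM and 3.15, 3.49 and 2.53 at DM2. The ERK3-depleted DM2 libraries overlapped those in GM, whereas the other lines showed no overlap. The values were log2 -1.08 ± 0.21, adjusted p = 0.000440 in control, log2 -0.91 ± 0.22, adjusted p = 0.00200 with MK5 depleted and log2 0.067 ± 0.21, adjusted p = 0.799 with ERK3 depleted. Hoxa3 was measured at 4.37, 4.17 and 4.21 CPM in the control libraries in GM and 2.61, 2.74 and 2.92 at DM2. The same gene had 3.86, 4.66 and 4.55 CPM in the ERK3-depleted line in GM and 4.34, 4.65 and 2.80 at DM2. MK5-depleted libraries showed 3.01, 4.71 and 3.80 CPM in GM and 2.04, 3.55 and 2.16 at DM2. Only in control were the DM2 libraries of Hoxa3 all below those in GM. Its change was log2 -0.62 ± 0.22, adjusted p = 0.0270 in control, log2 -0.57 ± 0.23, adjusted p = 0.0455 in the MK5-depleted line and log2 -0.15 ± 0.22, adjusted p = 0.572 in the ERK3-depleted line. The control call of Hoxa3 was lost without any one of control GM libraries 1, 2 and 3 or control DM2 libraries 1 and 2 (adjusted p up to 0.0776), with RSEM expected counts (adjusted p = 0.0660) or unstranded counts (0.0973) and on the deposited TPM (log2 -0.16, adjusted p = 0.604). Its MK5 call was lost without any one library except ERK3-depleted DM2 2 and 3, MK5-depleted GM 1 and MK5-depleted DM2 2 (up to 0.202).

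**Figure D3:**
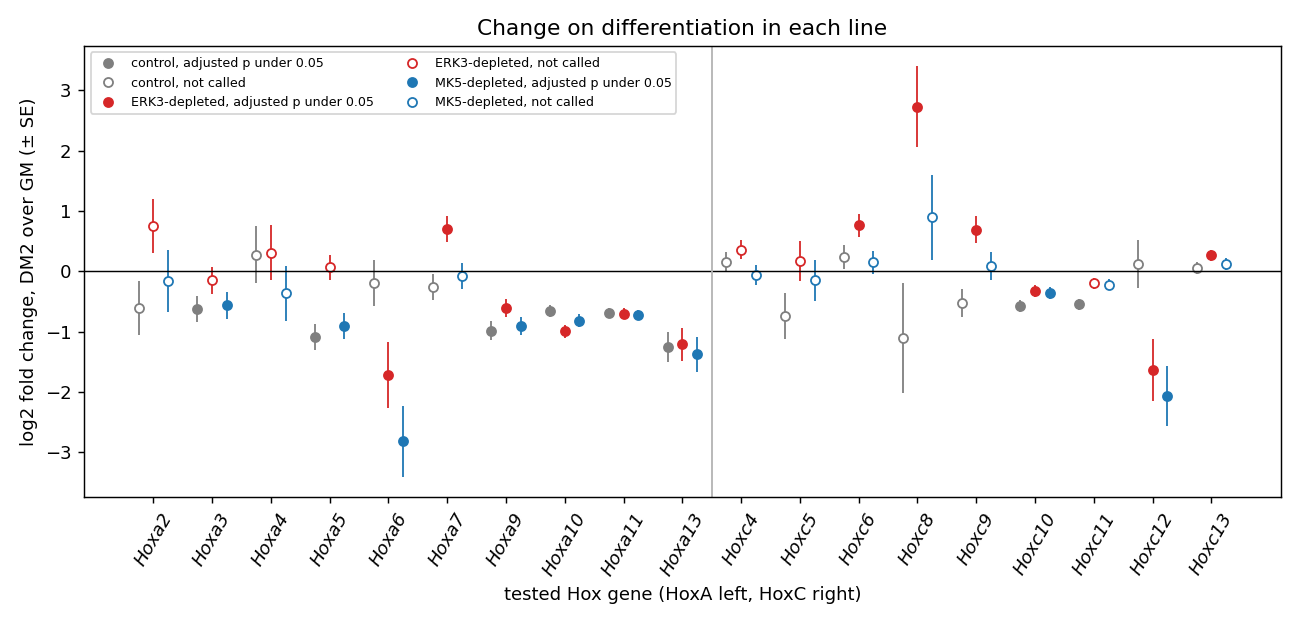
Log2 fold change from GM to DM2 (± SE) of 19 of the 20 tested Hox genes (x axis, HoxA left and HoxC right of the grey line) in the control (grey), ERK3-depleted (red) and MK5-depleted (blue) lines. Filled points have an adjusted p under 0.05. Hoxa9, Hoxa10, Hoxa11, Hoxa13 and Hoxc10 are filled and below 0 in all 3 lines, and Hoxc8 reaches 2.73 in the ERK3-depleted line.

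By the counts, 5 members rose at DM2 in the ERK3-depleted line, of which Hoxc13 was lower on the deposited TPM (-0.058): Hoxc8 (log2 2.73 ± 0.67, adjusted p = 0.00264), Hoxc6 (log2 0.76 ± 0.19, adjusted p = 0.00300), Hoxa7 (log2 0.70 ± 0.22, adjusted p = 0.0110), Hoxc9 (log2 0.69 ± 0.23, adjusted p = 0.0174) and Hoxc13 (log2 0.26 ± 0.10, adjusted p = 0.0315). Hoxc13, a gene of hair and nail, moved least and had 23.1 to 24.4 CPM in GM and 24.7 to 33.6 at DM2. Adjusted for each library's share of reads outside genes, none of these 5 was called, and Hoxa7, Hoxc8, Hoxc9 and Hoxc13 took the opposite sign, at -0.093, -0.27, -0.30 and -0.066. On the log2(TPM + 0.1) scale Hoxc8 stayed called (log2 1.79, adjusted p = 0.0247) and Hoxa7, Hoxc6, Hoxc9 and Hoxc13 did not (adjusted p = 0.147, 0.175, 0.268 and 0.631). Without ERK3-depleted DM2 library 2 Hoxc8 stood at 1.78. Hoxa7 lost its call without that library (adjusted p = 0.0885), Hoxc9 without that library (0.185) or GM library 3 (0.0607), and Hoxc13 without ERK3-depleted DM2 library 2 or GM library 2 or 3 (up to 0.312). Hoxa6 and Hoxc12, both under 2 CPM, fell in the ERK3-depleted line (log2 -1.71 ± 0.55, adjusted p = 0.0133 and log2 -1.64 ± 0.52, adjusted p = 0.0123) and in the MK5-depleted line (log2 -2.82 ± 0.58, adjusted p = 0.000715 and log2 -2.07 ± 0.50, adjusted p = 0.00226). The ERK3 calls of Hoxa6 and Hoxc12 were lost without ERK3-depleted GM library 3 (adjusted p = 0.0725 and 0.0758), and that of Hoxa6 also without DM2 library 1 (0.0712). For Hoxa2, Hoxa4, Hoxc4 and Hoxc5, called in no line, the changes lay between -0.74 and 0.75.

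In growth medium 1 Hox gene was called in the comparisons with control, Hoxa13, lower with MK5 depleted. Of the 20 members 0 were called between ERK3-depleted and control GM by edgeR, against 6.79% of all tested genes (3.72% higher and 3.06% lower). At an unadjusted p under 0.05 there were 3, for which the share of all genes is not given. DESeq2 and edgeR without the low count filter each called 1, Hoxa13. Hoxa13 stood at -0.75 ± 0.24 (log2, adjusted p = 0.0652), its ERK3-depleted libraries of 3.16 to 4.20 CPM all lying below the control libraries of 4.48 to 7.55, and with same-numbered libraries paired it was called (log2 -0.73, adjusted p = 0.0132). In the MK5-depleted line Hoxa13 was the only member called, log2 -0.98 ± 0.24, adjusted p = 0.0187, at 2.22 to 3.59 CPM, while 8.45% of all genes were called (4.71% higher and 3.74% lower). On the deposited TPM it was not called. That call was lost without control GM library 2 or 3 or MK5-depleted GM library 1 or 3, with adjusted p of 0.159, 0.0587, 0.111 and 0.0559. Between the depleted lines in GM edgeR called 0 of 20 and 0% of all genes, with 0 Hox genes at an unadjusted p under 0.05, and DESeq2 called 0. In the same GM libraries the 8 muscle markers summed to 1512 to 1893 CPM in control, 2139 to 2441 with ERK3 depleted and 1991 to 2397 with MK5 depleted, and the 8 fibroblast markers to 56.3 to 67.9, 43.3 to 50.4 and 37.1 to 40.8.

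At DM2 the ERK3-depleted line had 9 of the 20 members higher than control and 4 lower, and on the deposited TPM 4 of these 9, Hoxa9, Hoxc6, Hoxc10 and Hoxc11, took a negative sign. Among all tested genes 55.8% were called (28% higher, 27.8% lower). The median log2 difference was 0.44 over the Hox genes and 0.01 over all genes. In HoxC 6 of 9 were higher, Hoxc5, Hoxc6, Hoxc8, Hoxc9, Hoxc10 and Hoxc11, and Hoxc12 was lower. In HoxA 3 of 11 were higher, Hoxa5, Hoxa7 and Hoxa9, and 3 were lower, Hoxa6, Hoxa10 and Hoxa13. Groups 1 to 8 had a median of 0.69 over 11 tested genes and groups 9 to 13 of 0.20 over 9.

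Hoxc8, a thoracic patterning gene that also acts in motor neurons, differed most. Hoxc8 held 1.55, 1.10 and 1.5 CPM in control GM, against 0.918, 0.464 and 0.526 at control DM2. With ERK3 depleted the values were 1.72, 2.00 and 1.97 in GM and 11, 24.8 and 2.2 at DM2. With MK5 depleted they were 0.837, 2.81 and 1.69 and 3.70, 5.30 and 0.842. ERK3-depleted DM2 libraries 1 and 2 stood far above library 3, and all 3 were above the control DM2 libraries. The fold was 19.7 (log2 4.30 ± 0.77, adjusted p = 0.000221), and without ERK3-depleted DM2 library 2 it was 10.2 (log2 3.35, adjusted p = 0.00129). On the log2(TPM + 0.1) scale the difference was log2 2.97, adjusted p = 0.000681. Hoxc9, the next gene along the cluster and a gene of the thoracic and lumbar trunk, followed the same order of libraries. Hoxc9 stood at 35.0, 35.8 and 33.4 CPM in control GM and 26.6, 24.4 and 21.4 at control DM2. These DM2 libraries all lay below those in GM, and the fall was called in 7 of 15 alternatives but not in the main fit. With the replicate number as a block Hoxc9 was called lower in control (log2 -0.53, adjusted p = 0.0248). Its level was 39.7, 44.8 and 35.6 in ERK3-depleted GM and 67.7, 92.6 and 34.0 in ERK3-depleted DM2. For the MK5-depleted line the values were 31.6, 37.4 and 31.2 in GM and 37.5, 41.1 and 28.3 at DM2. Here too ERK3-depleted DM2 libraries 2 and 1 were highest and library 3 closest to control, with no overlap, and the fold was 2.68 (log2 1.42 ± 0.24, adjusted p = 9.89e-05).

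Hoxa7 and Hoxc6, trunk genes of the middle of their clusters, showed the pattern in a smaller size. Hoxa7 was measured at 25, 17.3 and 22.8 CPM in the control libraries in GM and 20.2, 18.6 and 15.4 at DM2. ERK3-depleted libraries gave 26.1, 23.4 and 20.8 CPM of Hoxa7 in GM and 41.6, 49.7 and 23.3 at DM2. In MK5-depleted libraries it had 20.5, 24.7 and 24.2 CPM in GM and 24.8, 24.6 and 16.3 at DM2. All ERK3-depleted DM2 libraries lay above control DM2, library 3 by the least, at log2 1.08 ± 0.22, adjusted p = 0.000525. Hoxc6 held 16.3, 12 and 16.2 CPM in control GM, against 18.5, 18.7 and 15.3 at control DM2. The same gene had 17, 16.3 and 16.8 CPM in the ERK3-depleted line in GM and 30.3, 36.0 and 18.8 at DM2. MK5-depleted libraries showed 16.2, 17.8 and 16.9 CPM in GM and 19.2, 23.1 and 14.1 at DM2. ERK3-depleted DM2 library 3 was just above the highest control library, and the difference was log2 0.69 ± 0.19, adjusted p = 0.00550. Hoxa5, given above, had no overlap with control DM2 (log2 0.99 ± 0.22, adjusted p = 0.000945). Hoxc5 stood at 2.61, 0.790 and 2.90 CPM in control GM and 1.30, 1.25 and 1.15 at control DM2. With ERK3 depleted the values were 3.27, 3.79 and 2.74 in GM and 3.06, 5.40 and 2.63 at DM2. With MK5 depleted they were 2.26, 3.11 and 3.53 and 2.65, 3.22 and 2.11. Hoxc5 is annotated across Hoxc10 and shares 166 exonic bases with it on the same strand, so reads of these bases could belong to either. Its ERK3-depleted DM2 libraries were above all control DM2 libraries (log2 1.57 ± 0.37, adjusted p = 0.00166).

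The remaining higher genes were posterior and differed by less than 1 log2 unit: Hoxa9 (log2 0.51 ± 0.15, adjusted p = 0.00842), Hoxc11 (log2 0.46 ± 0.093, adjusted p = 0.000466) and Hoxc10 (log2 0.24 ± 0.10, adjusted p = 0.0464). Each had all ERK3-depleted DM2 libraries above control DM2 in CPM. On the deposited TPM Hoxa9 (log2 -0.85, adjusted p = 0.000767) and Hoxc10 (log2 -0.41, adjusted p = 0.00660) were called lower instead, Hoxc11 was not called (log2 -0.086, adjusted p = 0.512), and nor were Hoxa5 (adjusted p = 0.0737), Hoxa7 (0.0738) and Hoxc6 (0.574). The higher call of Hoxc10 was lost in 9 of 14 alternatives, among them the fit with no low count filter (0.164), RSEM counts (0.194) and length and GC offsets (0.417), and in 13 of the 18 fits that left out 1 library, the libraries being all but control DM2 2, ERK3-depleted GM 2 and DM2 3, and MK5-depleted DM2 1 and 3 (adjusted p up to 0.282). With same-numbered libraries paired, Hoxa3 was called higher as well (log2 0.50, adjusted p = 0.0397) and Hoxa11 lower (-0.19, adjusted p = 0.0448), against log2 0.51 ± 0.22, adjusted p = 0.0620 and log2 -0.20 ± 0.088, adjusted p = 0.0664 without pairing. Over 14 alternatives Hoxa3 was called in 1 and Hoxa11 in 6, among them edgeR on RSEM counts (log2 -0.33, adjusted p = 0.0104). By limma on the log2(TPM + 0.1) scale Hoxa3 had a negative sign and was not called (log2 -0.43, adjusted p = 0.105).

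Lower at ERK3-depleted DM2 were Hoxa10 (1.55-fold, log2 -0.63 ± 0.11, adjusted p = 0.000139), Hoxa13 (log2 -0.70 ± 0.28, adjusted p = 0.0411), Hoxc12 and Hoxa6, with no overlap between the libraries in any of them. Hoxc12 was measured at 1.49, 0.527 and 1.30 CPM in the control libraries in GM and 1.11, 1.25 and 1.2 at DM2. Its level was 0.751, 0.768 and 1.43 in ERK3-depleted GM and 0.278, 0.248 and 0.400 in ERK3-depleted DM2. For the MK5-depleted line the values were 0.963, 1.07 and 1.69 in GM and 0.110, 0.164 and 0.579 at DM2. Hoxc12, between Hoxc11 and Hoxc13 and patterned posteriorly like them, had 23, 27 and 25 reads at control DM2 and 5, 4 and 7 at ERK3-depleted DM2 (log2 -1.92 ± 0.50, adjusted p = 0.00344). Hoxa6, a thoracic gene between Hoxa5 and Hoxa7, had 12, 10 and 13 reads against 1, 4 and 2 (log2 -1.98 ± 0.53, adjusted p = 0.00394). Hoxa5 and Hoxa7, on either side of Hoxa6, were higher, while Hoxc13, next to Hoxc12, was not called (log2 0.20 ± 0.10, adjusted p = 0.0916). By limma on the log2(TPM + 0.1) scale Hoxc13 was called lower (log2 -0.38, adjusted p = 0.00232), where the median gene stood at -0.55. The call of Hoxa13 was lost without control DM2 library 2 or 3 or any 1 of the 3 ERK3-depleted DM2 libraries (adjusted p up to 0.131).

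**Figure D4:**
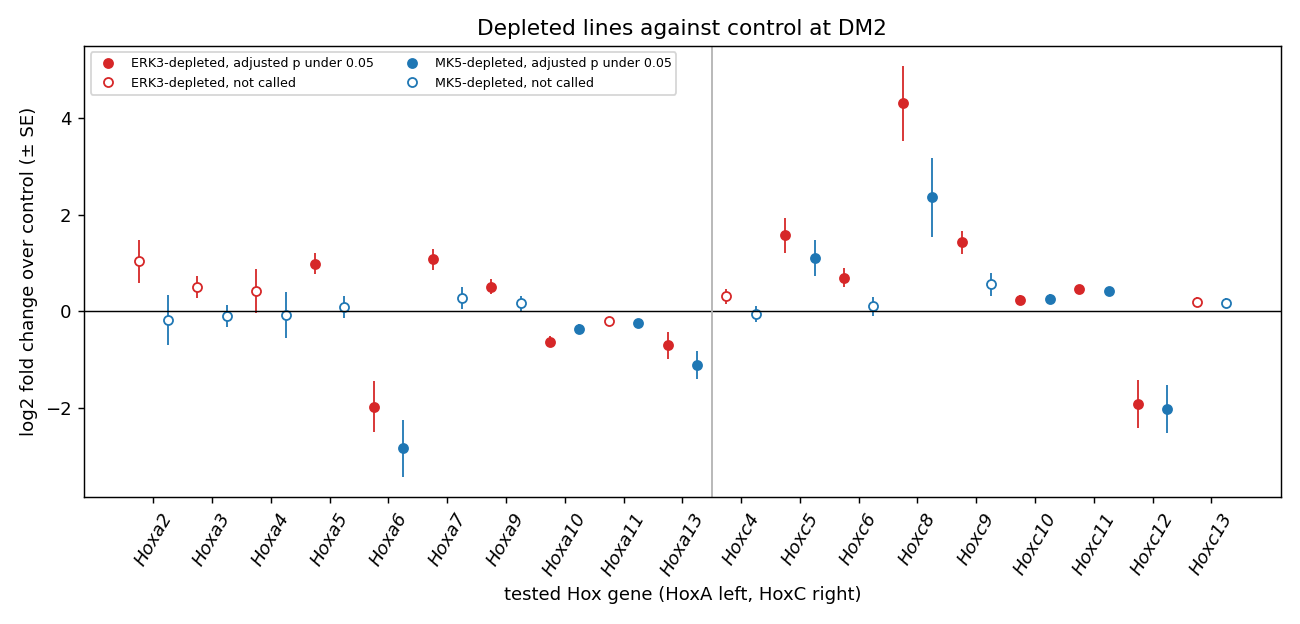
Log2 fold change (± SE) over control at DM2 of 19 of the 20 tested Hox genes (x axis, HoxA left and HoxC right of the grey line) in the ERK3-depleted (red) and MK5-depleted (blue) lines. Filled points have an adjusted p under 0.05. Hoxc8 stands at 4.30 and 2.35, Hoxa6 at -1.98 and -2.84 and Hoxc12 at -1.92 and -2.02. Among the filled points, the positive values of Hoxa9, Hoxc6, Hoxc10 and Hoxc11 (ERK3) and Hoxc10 (MK5) turn negative on the deposited TPM. Some open points do so too, among them Hoxa3 and Hoxc13 (ERK3).

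The order of the ERK3-depleted DM2 libraries in Hoxc8, Hoxc9, Hoxa7 and Hoxc6 was that of their share of reads outside genes, 7.73% in library 2, 5.55% in library 1 and 3.79% in library 3, against 2.44 to 3.05% at control DM2. Adjusted for that share, 2 members were called, Hoxa10 (-0.57) and Hoxa6 (-3.18), and 2705 of all 13939 genes instead of 7776. Hoxc8 then stood at 1.15 (adjusted p = 0.207), Hoxc9 at 0.38 (0.234), Hoxa7 at 0.24 (0.527) and Hoxc6 at -0.065 (0.856). Without the 4 DM2 libraries of the highest share, which leaves library 3 alone in each depleted group with its spread taken from the other groups, 3 members were called: Hoxc8 (1.75), Hoxc9 (0.48) and Hoxa10 (-0.57). What part reads outside genes have in these differences was not tested. The Hoxa10 difference was close to its full size in both, against -0.63 with all libraries and no adjustment.

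**Figure D5:**
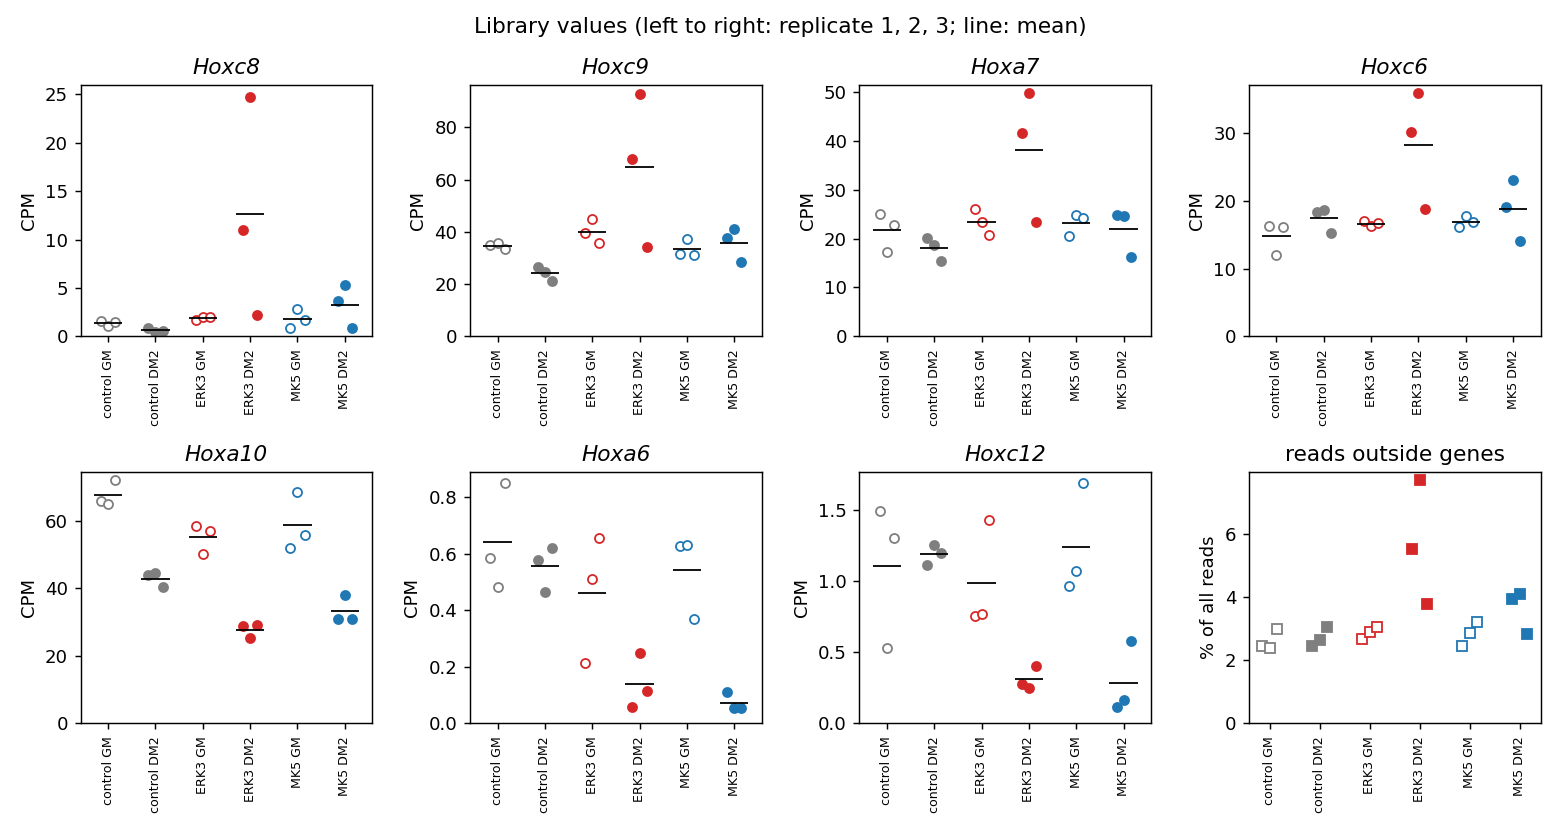
CPM in each library (y axis, linear from 0) of 7 Hox genes by group (x axis), and the share of reads outside genes in the same libraries (last panel). Within a group the points are libraries 1, 2 and 3 from left to right and the line is their mean. Hoxc8, Hoxc9, Hoxa7 and Hoxc6 peak in ERK3-depleted DM2 library 2, which also has 7.73% of reads outside genes, whereas Hoxa10, Hoxa6 and Hoxc12 are low in all 3 ERK3-depleted DM2 libraries.

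In the MK5-depleted line at DM2 5 members were lower than control and 4 higher, of which Hoxc10 was lower on the deposited TPM (-0.14). Of all genes 45.1% were called (22.2% higher and 22.9% lower). The comparison shares its control libraries with that of ERK3. The 20 members had a median log2 difference of 0.02, against 0.0030 over all tested genes. Lower were Hoxa6 (log2 -2.84 ± 0.58, adjusted p = 0.000923), with 2, 1 and 1 reads, and Hoxc12 (log2 -2.02 ± 0.50, adjusted p = 0.00335), with 2, 3 and 11. Hoxa13 (log2 -1.11 ± 0.29, adjusted p = 0.00500), Hoxa10 (log2 -0.37 ± 0.11, adjusted p = 0.0111) and Hoxa11 (log2 -0.25 ± 0.088, adjusted p = 0.0273) were lower too, and in all 5 the libraries did not overlap with control DM2. Higher were Hoxc8 (log2 2.35 ± 0.82, adjusted p = 0.0288), Hoxc5 (log2 1.10 ± 0.38, adjusted p = 0.0243), Hoxc11 (log2 0.41 ± 0.093, adjusted p = 0.00171) and Hoxc10 (log2 0.25 ± 0.10, adjusted p = 0.0455). Hoxc8 overlapped: MK5-depleted library 3, at 0.842 CPM, lay within the control range of 0.464 to 0.918, while libraries 1 and 2 had 3.70 and 5.30. The libraries of Hoxc10 overlapped as well, and those of Hoxc5 and Hoxc11 did not. Hoxc9 lay above control in all 3 libraries and was not called (log2 0.56 ± 0.24, adjusted p = 0.0635). DESeq2 called it higher (log2 0.56, adjusted p = 0.0391), as did edgeR with the replicate number as a block (log2 0.55, adjusted p = 0.0222).

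Several of the MK5 calls depended on single libraries. Without MK5-depleted DM2 library 1 the calls of Hoxa10 (adjusted p = 0.0669), Hoxa11 (0.158), Hoxc5 (0.0535), Hoxc8 (0.0713) and Hoxc10 (0.189) were lost. Without library 2 those of Hoxc5 (0.0849), Hoxc8 (0.123) and Hoxc10 (0.0883) were. Single control DM2 libraries ended the calls of Hoxa11 (1 or 2), Hoxc5 (any), Hoxc8 (2 or 3) and Hoxc10 (1 or 3), and MK5-depleted GM libraries 1 and 3 that of Hoxc10, with adjusted p of at most 0.257 over the 4 genes. Hoxa6, Hoxa13, Hoxc11 and Hoxc12 stayed called in all 18 such fits, and without MK5-depleted DM2 library 3 Hoxc12 stood at -3.07. Other settings ended calls too: that of Hoxa11 in 5 of 14 alternatives, among them no low count filter (0.0951), unstranded counts (0.345) and only the libraries of the comparison (0.0518), that of Hoxc10 in 9, and that of Hoxc11 on the deposited TPM (0.632) and with length and GC offsets (0.0513). Without the 4 DM2 libraries with most reads outside genes 4 members were called, and Hoxc8 was at 0.41.

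Set against each other at DM2, the depleted lines differed in no Hox gene by edgeR (0 of 20, and 0% of all genes). At an unadjusted p under 0.05 there were 10 members, of which 7 belong to groups 1 to 8. DESeq2 called 3 (Hoxa5, Hoxa7 and Hoxc9) and edgeR without the low count filter 5, adding Hoxc6 and Hoxc8. Same-numbered libraries of these groups deviated together, and with them paired the same 3 genes as in DESeq2 were called lower in the MK5-depleted line: Hoxa5 (log2 -0.89, adjusted p = 0.0414), Hoxa7 (-0.79, 0.0474) and Hoxc9 (-0.82, 0.0377). Without ERK3-depleted DM2 library 3 the count was 7. Without pairing the differences were -0.90 ± 0.22, -0.80 ± 0.22 and -0.86 ± 0.23. The shares of all genes at the unadjusted threshold and under these other settings are not given. These counts can therefore not be read as particular to Hox genes.

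The test of the response itself, the change from GM to DM2 in a depleted line minus that in control, called 4 members higher for ERK3 and 0 lower (28.6% of all genes called, 14.6% higher and 14% lower): Hoxc8 (log2 3.83 ± 1.12, adjusted p = 0.0199), Hoxc9 (log2 1.22 ± 0.33, adjusted p = 0.0136), Hoxa5 (log2 1.15 ± 0.30, adjusted p = 0.0101) and Hoxa7 (log2 0.97 ± 0.31, adjusted p = 0.0280). For MK5 it called 2 lower and 0 higher (18% of all genes, 8.54% higher and 9.48% lower): Hoxa6 (log2 -2.62 ± 0.72, adjusted p = 0.0220) and Hoxc12 (log2 -2.19 ± 0.64, adjusted p = 0.0281). The other line's values were log2 -1.52 ± 0.68, adjusted p = 0.0989 and log2 -1.76 ± 0.66, adjusted p = 0.0523 for ERK3, and log2 2.00 ± 1.15, adjusted p = 0.226 and log2 0.62 ± 0.33, adjusted p = 0.194 for MK5. Both responses share the control libraries. Hoxc12 was called lower for ERK3 in 11 of 15 alternatives, among them DESeq2 (log2 -1.78, adjusted p = 0.0480) and the replicate block (log2 -1.79, adjusted p = 0.0192). On the deposited TPM the ERK3 calls of Hoxc9 (adjusted p = 0.0575), Hoxa5 (0.0787) and Hoxa7 (0.251) were lost, and Hoxa9 (log2 -1.01, adjusted p = 0.00873), Hoxa10 (log2 -0.85, adjusted p = 0.00871) and Hoxa11 (log2 -0.59, adjusted p = 0.0276) were called lower, where the median gene stood at -0.47. By the counts neither response of Hoxa10, Hoxa11 or Hoxa13 was called, except that of Hoxa10 for ERK3 with the block within each line (log2 -0.34, adjusted p = 0.0268).

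On the deposited TPM, which are not scaled between libraries beyond their sum, the median gene was lower at ERK3-depleted DM2 than at control DM2 by a log2 of -0.55 and at MK5-depleted DM2 by -0.35, on the log2(TPM + 0.1) scale. Measured against those medians, Hoxc8 stood at 3.52 and 1.92, Hoxc9 at 1.30 and 0.55, Hoxc12 at -1.52 and -1.94 and Hoxa10 at -0.69 and -0.36, each with its sign in CPM. Hoxa9 went the other way, at -0.30 for ERK3 and -0.38 for MK5. RSEM gave Hoxa9 a mean transcript length of 2912 ± 453 bases at ERK3-depleted DM2, 2468 ± 654 at MK5-depleted DM2 and 1687 ± 75.1 at control DM2 (mean ± SD, n = 3), with 439 ± 74.5, 368 ± 46.7 and 378 ± 42.5 expected counts. The TPM divides by that length. As deposited, Hoxc6, Hoxc10 and Hoxc11 were also lower in ERK3-depleted than in control DM2 in TPM, at -0.11, -0.41 and -0.09, and higher relative to the median, at 0.45, 0.14 and 0.47.

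Reads on the opposite strand were few for most members and many for Hoxc9 and Hoxa2. Of the reads over Hoxc9 20.2% lay on the forward, antisense column, against a median of 2.37% over 12663 protein-coding genes with at least 100 reads and a 90th percentile of 7.89%. The share of Hoxc9 stayed between 17.7 and 22.2% in the 6 groups, also at ERK3-depleted DM2 (19.1%), where its reverse reads were most numerous. For Hoxa2 the share was 13.2% in control GM and 45.6% at ERK3-depleted DM2, on 38 and 68 reads. The M21 annotation has no gene opposite the exons of Hoxc9 or Hoxa2. Hoxa11 shares 800 exonic bases with Hoxa11os on the opposite strand, which the stranded counts tell apart.

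Noncoding genes of the clusters were tested in 7 of 49 cases, and the ERK3-depleted line held 4 of these higher than control at DM2 and 0 lower, where 55.8% of all tested genes were called (28% higher and 27.8% lower). Hotairm1, a HoxA antisense RNA known from myeloid cells, had 2.23, 2.48 and 0.970 CPM against 0.580, 1.07 and 0.813 (log2 1.19 ± 0.35, adjusted p = 0.00793). Gm27477, also of HoxA, had 1.11, 1.18 and 0.400 against 0.145, 0.0464 and 0.191 (log2 2.76 ± 0.65, adjusted p = 0.00168), and Gm15050 4.56, 4.84 and 3.25 against 1.69, 1.76 and 1.87 (log2 1.25 ± 0.22, adjusted p = 0.000128). ERK3-depleted libraries 1 and 2 were again the highest in each. Hoxa11os, antisense to Hoxa11, fell with differentiation in control (log2 -1.43 ± 0.18, adjusted p = 5.83e-06) and in the MK5-depleted line (log2 -0.53 ± 0.18, adjusted p = 0.0225). It had 26.1, 32.6 and 30.3 CPM in control GM and 11.8, 11.3 and 10.05 at control DM2. At DM2 it held 25.8, 29.8 and 16.6 in the ERK3-depleted and 16.6, 18.3 and 13.4 in the MK5-depleted line, both wholly above control (log2 1.12 ± 0.19, adjusted p = 8.53e-05 and log2 0.54 ± 0.19, adjusted p = 0.0255). Its response differed from control in both lines (log2 1.22 ± 0.26, adjusted p = 0.00433 and log2 0.90 ± 0.26, adjusted p = 0.0259), while those of Hoxa11 on the other strand were not called by the counts (-0.0072 ± 0.12 and -0.029 ± 0.12).

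At MK5-depleted DM2 Gm15050 was the other noncoding gene called (log2 0.56 ± 0.22, adjusted p = 0.0484), and in GM neither depleted line had one, with 1 at an unadjusted p under 0.05 for ERK3 and 0 for MK5. Hotair, from between Hoxc11 and Hoxc12 and known as a partner of Polycomb, was tested and called in no depletion contrast. It had 5.07, 4.64 and 3.92 CPM at control DM2 and 6.51, 5.89 and 3.31 at ERK3-depleted DM2 (log2 0.20 ± 0.23, adjusted p = 0.475). 9530018H14Rik fell on differentiation in control (log2 -1.50 ± 0.54, adjusted p = 0.0310). Hottip, beside Hoxa13, had 5 reads in all. Of the protein-coding genes within 200 kb of the clusters 10 of 19 were tested, and at ERK3-depleted DM2 3 were higher and 2 lower than control, against the 55.8% of all genes called: Snf8 (log2 1.17 ± 0.15, adjusted p = 9.82e-06), Atp5g1 (log2 1.10 ± 0.15, adjusted p = 1.4e-05) and Skap1 (log2 0.93 ± 0.32, adjusted p = 0.0186) beside HoxB, Skap2 beside HoxA (log2 -0.43 ± 0.081, adjusted p = 0.000260) and Calcoco1 beside HoxC (log2 -0.31 ± 0.13, adjusted p = 0.0421). At MK5-depleted DM2 Snf8 (log2 0.73 ± 0.15, adjusted p = 0.000860) and Atp5g1 (log2 0.81 ± 0.15, adjusted p = 0.000365) were higher and Skap2 (log2 -0.53 ± 0.081, adjusted p = 0.000107) and Calcoco1 (log2 -0.45 ± 0.13, adjusted p = 0.00773) lower (45.1% of all genes called). In GM Calcoco1 was lower in both depleted lines (log2 -0.44 ± 0.13, adjusted p = 0.0448 and log2 -0.60 ± 0.13, adjusted p = 0.0102) and Atp5g1 higher with ERK3 depleted (log2 0.54 ± 0.15, adjusted p = 0.0368).

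All 10 TALE cofactors were tested. In control 2 rose and 4 fell on differentiation (45.6% of all genes called), led by Pknox2 (log2 1.87 ± 0.18, adjusted p = 2.06e-07), Meis2 (log2 -1.16 ± 0.11, adjusted p = 2.29e-07) and Pbx4 (log2 -1.05 ± 0.39, adjusted p = 0.0328). At DM2 4 were higher in the ERK3-depleted line and 0 lower, a share below the 55.8% of all genes called, with a median of 0.27 against 0.01 over all genes: Pbxip1, which binds Pbx proteins (log2 0.73 ± 0.12, adjusted p = 8.55e-05), Pbx2 (log2 0.45 ± 0.088, adjusted p = 0.000336), Meis3 (log2 0.42 ± 0.16, adjusted p = 0.0320) and Pknox1. With MK5 depleted 3 were higher and 0 lower (45.1% of all genes called), Pknox2 (log2 0.43 ± 0.17, adjusted p = 0.0454), Pbxip1 (log2 0.34 ± 0.12, adjusted p = 0.0275) and Pbx2 (log2 0.22 ± 0.088, adjusted p = 0.0498). In GM 0 of 10 were called in either line by edgeR, with 2 and 3 at an unadjusted p under 0.05.

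Of 31 Polycomb and trithorax regulators, which keep Hox genes silent or active, 3 rose and 7 fell on differentiation of control, where 45.6% of all genes were called, Cbx2 (log2 -0.80 ± 0.10, adjusted p = 2.16e-06), Ezh1 (log2 0.56 ± 0.10, adjusted p = 0.000199) and Ezh2 (log2 -0.51 ± 0.11, adjusted p = 0.00140) moving most. At DM2 7 were higher and 10 lower with ERK3 depleted and 6 and 9 with MK5 depleted, with medians of -0.06 and -0.01. These shares, 54.8% and 48.4% of the list, are near the 55.8% and 45.1% of all genes called. The most changed with ERK3 depleted were the demethylase Kdm6a (log2 -0.99 ± 0.16, adjusted p = 8.71e-05), Kmt2a, the H3K4 methyltransferase that maintains Hox expression (log2 0.80 ± 0.12, adjusted p = 3.36e-05), and Asxl1 (log2 -0.73 ± 0.12, adjusted p = 5.69e-05). With MK5 depleted they were Kdm6a (log2 -0.69 ± 0.16, adjusted p = 0.00219), Rbbp5 (log2 -0.57 ± 0.12, adjusted p = 0.000849) and Rnf2 (log2 -0.53 ± 0.14, adjusted p = 0.00503). In GM 1 was called higher with ERK3 depleted, Phf19 (log2 0.67 ± 0.14, adjusted p = 0.0155), and 3 higher and 1 lower with MK5 depleted, led by Phf19 (log2 0.77 ± 0.14, adjusted p = 0.00568).

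Among 14 tested upstream regulators of Hox genes (retinoic acid, Gdf11, Cdx and Kat6a pathways) 6 rose and 2 fell in control (45.6% of all genes called). Cyp26a1, which degrades retinoic acid, rose most (log2 3.03 ± 0.34, adjusted p = 1.14e-06), followed by Gdf11, a signal for posterior identity (log2 0.72 ± 0.11, adjusted p = 3.61e-05), and the retinoic acid receptor Rarg fell (log2 -0.64 ± 0.091, adjusted p = 1.8e-05). At DM2 0 were higher and 5 lower with ERK3 depleted (28% of all genes higher and 27.8% lower), among them Cyp26b1 (log2 -1.47 ± 0.56, adjusted p = 0.0320), the histone acetyltransferase Kat6a (log2 -0.84 ± 0.13, adjusted p = 5.29e-05) and Ing5 (log2 -0.46 ± 0.14, adjusted p = 0.00847). With MK5 depleted 3 were lower and 0 higher (22.9% and 22.2% of all genes), Kat6a (log2 -0.72 ± 0.13, adjusted p = 0.000372), Rxra (log2 -0.39 ± 0.084, adjusted p = 0.00124) and Rarg (log2 -0.29 ± 0.091, adjusted p = 0.0156). Rarg was also lower in GM in both lines (log2 -0.31 ± 0.091, adjusted p = 0.0489 and log2 -0.32 ± 0.091, adjusted p = 0.0394). Of 30 further limb and regional transcription factors 15 were tested: 4 rose and 4 fell in control, led by Lhx9 (log2 -1.95 ± 0.17, adjusted p = 6.47e-08). Against the same shares of all genes, at DM2 3 were higher and 3 lower with ERK3 depleted, Shox2 (log2 0.60 ± 0.10, adjusted p = 0.000106) and Tbx3 (log2 0.53 ± 0.12, adjusted p = 0.00131) among them. With MK5 depleted 0 were higher and 6 lower, among them Prrx1, of limb mesenchyme (log2 -0.48 ± 0.11, adjusted p = 0.00154), and Six4 (log2 -0.43 ± 0.11, adjusted p = 0.00405). In GM Prrx1 was the member called lower with ERK3 depleted (log2 -0.45 ± 0.11, adjusted p = 0.0211).

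Markers of other cell types were looked at beside these differences. The summed level of the 6 cartilage and bone markers was 71.1 to 133 CPM at ERK3-depleted DM2, 48.9 to 78.8 at MK5-depleted DM2 and 40.9 to 48.0 at control DM2, and nearly all of it was Sox9 (log2 1.29 ± 0.19, adjusted p = 3.23e-05 for ERK3), with Ibsp at 0. Like Hoxc8, Sox9 was highest in ERK3-depleted DM2 libraries 2 and 1, at 133 and 118 CPM. The 8 fibroblast markers summed to 186 to 219 CPM at control DM2, 156 to 208 at ERK3-depleted and 123 to 152 at MK5-depleted DM2. The 8 muscle markers summed to 3803 to 3992, 4112 to 4661 and 3973 to 4726. Leukocyte markers, with Adgre1 and Cd3e at 0, stayed at or below 2.73 CPM and both tested ones were higher at ERK3-depleted DM2, epithelial ones at or below 1.42 and adipocyte ones at or below 10.2. The part of other cells in the Hox differences was not tested.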

How the data were processed

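The RNA was poly-A selected and sequenced as stranded libraries, per the labels. Reads were converted by bcl2fastq 2.17 and aligned to GRCm38 by STAR 2.5.1b, per the submitters' processing notes. The deposited gene counts are raw, with unstranded, forward and reverse columns, and the reverse column, which holds 92.8 to 95.3% of stranded counts, was used here. RSEM 1.2.28 is named in the submitters' processing notes, and its expected counts, TPM and lengths were deposited beside them, per the file headers. The authors' annotation release is not given in the sources used here. Of 50600 identifiers 50376 matched GENCODE M21 without the version suffix (38 of the 39 Hox genes also with it), and M21 gave symbols and positions.

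CPM use TMM-scaled library sizes, except the levels, Poisson intervals and limits given for HoxB and HoxD. Those divide by the plain totals of gene counts. edgeR 4.0.16 (R 4.3.3) was run with filterByExpr, a mean for each of 6 groups and robust quasi-likelihood fits for 11 contrasts, on all 13939 tested genes. Each contrast had its own Benjamini-Hochberg adjustment, and a called gene has an adjusted p under 0.05. The shares of all genes called are those of the main fit, and none are given at an unadjusted p. Counts of Hox genes under another setting or at an unadjusted p, where no count of all genes stands beside them, cannot be read as particular to Hox genes. The SE is the log2 fold change over the square root of F. The analysis was tested on simulated data. Summary lines (21.7 to 35.8% of reads) stayed out. Every pair of libraries within a group differed beyond counting noise. The mean squared difference over the counting variance was up to 88.3 at ERK3-depleted DM2 and 43.9 at MK5-depleted DM2. In the other groups it was at most 17.3. The main fit shares its estimate of the spread over all 6 groups, so an SE at depleted DM2 is not the spread of those libraries alone.

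The members and lists were chosen with earlier results of these data known. Every member is named but 1, which, with 2 genes of the other lists, is not reported here; library values are given in full for at most 14 members called in a contrast with at least 1 CPM in the higher group, by largest fold change, and up to 3 called members of each other list. In all, 15 alternatives and 18 fits without 1 library were run, including DESeq2 1.42.0, limma 3.58.1 on log2 TPM, RSEM expected counts (rounded), unstranded counts, offsets for gene length and GC, and a covariate for reads outside genes. Replicate numbers come from the titles. Same-numbered libraries of the 2 groups correlated above 0.1 in their deviations from the group means in every pair for ERK3 DM2 against GM (0.156 to 0.291), ERK3 against control in GM (0.155 to 0.290) and DM2 (0.108 to 0.205), MK5 against control in GM (0.142 to 0.190) and MK5 against ERK3 at DM2 (0.281 to 0.498). The main fit is unpaired, and the fit with the replicate number as a block is given beside it where it changes a call.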

Additional observations from a re-analysis of the deposited data

Results flagged for a closer look

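The GM to DM2 change of 6 members differed between a depleted line and control by the test of that difference. For ERK3 these were Hoxc8 (log2 3.83), Hoxc9 (1.22), Hoxa5 (1.15) and Hoxa7 (0.97), all higher, in an order of libraries that follows the share of reads outside genes. None of the 4 was called with that share as a covariate (0.91, 0.26, 0.53 and 0.19) or without the 4 DM2 libraries in which it is highest (1.28, 0.27, 0.60 and 0.24). Without ERK3-depleted DM2 library 2 Hoxc8 stood at 2.88 (adjusted p = 0.0544) and Hoxa7 at 0.71 (0.0916). Hoxa7 also lost its call without ERK3-depleted DM2 library 1 or GM library 3, control GM library 1 or 3 or control DM2 library 3 (adjusted p up to 0.0916). For MK5 Hoxa6 (-2.62) and Hoxc12 (-2.19) were lower. Both rest on few reads, 1 to 17 and 2 to 32 in a library. With the covariate they stood at -2.91 and -2.13, still called. Hoxa6 lost its call without control GM library 2, MK5-depleted GM library 1 or MK5-depleted DM2 library 2 (adjusted p up to 0.0555), and Hoxc12 without control GM library 2, control DM2 library 2 or 3, MK5-depleted GM library 3 or MK5-depleted DM2 library 1 or 2 (up to 0.0881).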

How the results depend on the processing

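Adjusted for reads outside genes, the count of Hox genes called was 6 for ERK3-depleted DM2 against GM, 1 for ERK3 against control in GM, 2 at DM2 and 0 for the ERK3 response. Without the 4 DM2 libraries with most such reads it was 5, 1, 3 and 0, and 4 for MK5 against control at DM2 and 0 for the MK5 response. Without the low count filter it was 1 for ERK3 against control in GM, 5 between the depleted lines at DM2 and 4 for the MK5 response, and DESeq2 gave 1 and 3 for the first 2 of these. The MK5 response had 1 call with a filter of 1 CPM or with RSEM counts and 4 with only its own libraries, and MK5 against control in GM had 0 on either TPM scale. Under the replicate block the counts were 1 for ERK3 against control in GM, 3 between the depleted lines at DM2, 9 for control DM2 against GM, 13 for ERK3-depleted DM2 against GM and 15 for ERK3 against control at DM2. With length and GC offsets beside the block they were 2 for each depleted line against control in GM and 3 between the depleted lines at DM2, and the block within each line gave 7 for the ERK3 response, adding Hoxa10, Hoxc11 and Hoxc12. The replicate block ended no call.

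Leaving out 1 library gave 0 to 1 calls for ERK3 against control in GM (1 without control GM library 1 or ERK3-depleted DM2 library 3) and 0 to 1 for MK5. It gave 4 to 10 for MK5 against control at DM2 and 0 to 7 between the depleted lines. The ERK3 response had 2 to 7, lowest without ERK3-depleted DM2 library 2 and highest without library 3, and the MK5 response 0 to 3, with 0 without control GM library 2 or MK5-depleted DM2 library 2. The other counts stayed within 1.5 times their value.

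Some signs turned. So adjusted, ERK3-depleted DM2 against GM was -0.093 for Hoxa7, -0.27 for Hoxc8, -0.30 for Hoxc9 and -0.066 for Hoxc13, and ERK3 against control at DM2 was -0.065 for Hoxc6. Without the 4 libraries Hoxa7 was -0.012 and Hoxc9 -0.24. On log2(TPM + 1) and log2(TPM + 0.1) as deposited, ERK3-depleted DM2 against GM gave -0.053 and -0.058 for Hoxc13. ERK3 against control at DM2 gave -0.79 and -0.85 for Hoxa9, -0.10 and -0.11 for Hoxc6, -0.40 and -0.41 for Hoxc10 and -0.084 and -0.086 for Hoxc11, and MK5 against control -0.14 and -0.14 for Hoxc10. The cause was not tested. At this depth HoxB, Hoxa6 and Hoxc12 rest on few reads, and small differences in them were not detectable.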
